A study of Mus musculus with 6 samples.

Results

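The response to tumour necrosis factor (TNF) of a mouse endothelial cell line with its splicing repressor Ptbp1 knocked out and a human PTBP1 cDNA put back (the rescue line) is described here from 2 of the 6 RNA-seq libraries of the study. The 2 libraries were chosen by the names of their deposited files, which read rescue with TNF and rescue. Of the remaining 4, a pair is named for the parental line (with TNF and without) and a pair for the knockout line (with TNF and without), so each of the 6 groups held 1 library and no difference between 2 libraries has a replicate check. Per the labels, all cells derive from an aortic endothelial line of genotype Fn AB+/- that had been immortalised with SV40 under a Tet-On switch. Doxycycline was taken away before plating in 10% serum, and treated cells received TNFalpha at 30 ng/mL. The time in TNF is not given in the sources used here. The knockout was made by CRISPR and is a single-cell clone, per the study's design text, and the rescue was made from knockout cells, so both rest on 1 clone.

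The sample labels name other groups than the file names for 4 of the 6 libraries, these 2 included in part. The library named rescue with TNF is also labelled Rescue_TNF, but the library named rescue is labelled KO_TNF. By file name, Rescue is KO, WT_TNF is KO plus TNF and KO is parental plus TNF. Groups below are those of the file names, and the same ratio by label (the library labelled Rescue_TNF over the one labelled Rescue) is given beside the results that it reverses or moves most. The level of Ptbp1 RNA did not set the libraries named KO apart: it measured, as counts scaled to library size (CPM), 186 with TNF and 174 without in the rescue pair, 424 and 388 in the knockout pair and 423 and 338 in the parental pair. A CRISPR deletion need not lower the RNA, and reads of the human cDNA were not counted apart. A 34-nt exon of Ptbp2 that Ptbp1 is known to keep out had a psi (the fraction of transcripts that include it) of 0.942 and 0.891 in the rescue pair. It was at 1.00 in both libraries named KO, of which the labels call the one with TNF WT_TNF and the other Rescue, and at 0.698 and 0.562 in the pair named parental.

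TNF binds receptors on the cell surface and, through adaptor and ubiquitin-ligase proteins, frees NF-kB transcription factors from their inhibitors, the IkB proteins. In endothelial cells NF-kB turns on adhesion molecules and chemokines that draw leukocytes to the vessel wall, and it also turns on its own inhibitors, which end the response. A second wave runs through interferon regulatory factors and STAT proteins and brings up antiviral genes and the machinery that presents peptides on MHC class I.

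Depth was even, at 19582761 expected counts in the library named rescue with TNF and 21609245 in the one named rescue, and the other 4 libraries lay between 19601432 and 21461806. The labelled cell type was not borne out by the defining endothelial markers. In the rescue pair Cdh5 had 1.29 CPM with TNF and 0.267 CPM without, Pecam1 had 0.198 and 0.133 CPM and Kdr 0.446 and 0.4 CPM, and Cldn5 was at 0 in all 6 libraries. Of 14 endothelial markers, 12 were below 2 CPM in both rescue libraries, and Eng (315 and 273 CPM) made up most of their summed 334 CPM with TNF and 287 CPM without. Smooth muscle and fibroblast markers summed to 7654 CPM with TNF and 16207 CPM without. Macrophage and leukocyte markers summed to 19.9 and 15.3 CPM, with 4 of 9 at 0 in both, and epithelial markers summed to 0.594 and 1.51 CPM. Their part in the results was not tested.

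The promoters of 6 genes described below are shown because they hold the motifs through which the 2 waves are known to act. Each line gives the 250 bases before the gene's start from the RefSeq table (GRCm38.p6), read 5′ to 3′ on the gene's strand. Capitals mark matches to an NF-kB motif (GGNNNTTCC, or GGAANNNCC on the other strand) or to an interferon-stimulated motif (GAAA, any 2 bases and GAAA again, or TTTC, any 2 bases and TTTC on the other strand); no match to one motif overlaps a match to the other in these windows.
Icam1, chr9:21015690-21015939, plus strand: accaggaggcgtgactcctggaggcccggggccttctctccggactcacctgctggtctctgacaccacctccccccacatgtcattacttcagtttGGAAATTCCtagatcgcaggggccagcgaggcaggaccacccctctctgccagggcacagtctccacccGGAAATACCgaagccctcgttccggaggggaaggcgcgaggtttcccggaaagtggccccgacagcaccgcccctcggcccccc
Cxcl10, chr5:92348890-92349139, minus strand: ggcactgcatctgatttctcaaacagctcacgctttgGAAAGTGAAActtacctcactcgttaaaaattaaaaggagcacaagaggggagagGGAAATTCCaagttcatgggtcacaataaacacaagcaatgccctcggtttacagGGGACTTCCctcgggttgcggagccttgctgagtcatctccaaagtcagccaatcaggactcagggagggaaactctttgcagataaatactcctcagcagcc
Nfkbia, chr12:55492648-55492897, minus strand: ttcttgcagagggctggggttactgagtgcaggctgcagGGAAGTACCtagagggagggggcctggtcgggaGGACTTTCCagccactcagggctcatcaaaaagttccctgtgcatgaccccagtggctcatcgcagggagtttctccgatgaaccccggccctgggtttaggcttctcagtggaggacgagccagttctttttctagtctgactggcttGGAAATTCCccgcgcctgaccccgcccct
Gbp5, chr3:142496684-142496933, plus strand: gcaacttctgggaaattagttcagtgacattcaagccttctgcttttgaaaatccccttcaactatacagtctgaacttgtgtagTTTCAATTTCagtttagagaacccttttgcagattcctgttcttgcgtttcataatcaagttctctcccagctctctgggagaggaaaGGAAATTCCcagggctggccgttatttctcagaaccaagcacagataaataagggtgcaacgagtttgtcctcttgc
H2-K1, chr17:34000348-34000597, minus strand: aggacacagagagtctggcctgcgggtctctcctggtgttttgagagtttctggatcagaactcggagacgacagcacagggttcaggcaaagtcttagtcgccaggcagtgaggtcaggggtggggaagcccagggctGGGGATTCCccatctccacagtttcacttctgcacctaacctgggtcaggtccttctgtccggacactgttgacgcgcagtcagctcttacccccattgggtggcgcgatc
Cxcl1, chr5:90890995-90891244, plus strand: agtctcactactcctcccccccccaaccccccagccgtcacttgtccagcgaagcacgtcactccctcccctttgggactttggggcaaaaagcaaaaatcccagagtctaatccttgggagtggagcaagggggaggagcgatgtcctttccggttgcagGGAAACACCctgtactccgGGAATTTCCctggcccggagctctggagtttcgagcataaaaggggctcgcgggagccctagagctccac
Icam1 holds 2 NF-kB motifs, starting 153 and 84 bases before its start, and Nfkbia holds 3, starting 211, 178 and 29 bases before it. Cxcl10 has NF-kB motifs 158 and 103 bases before its start and an interferon-stimulated motif 213 bases before it, and Gbp5 has 1 of each, 77 and 165 bases before its start. The table has no entry for Ccl2, Ccl5 or Vcam1. Of 27025 promoters in the table, 15.6% held the NF-kB motif and 3.04% the interferon-stimulated one. Among genes that passed the filter on low counts and were in the table, the NF-kB motif stood in 24.3% of the 391 that were at least 2-fold higher with TNF in the rescue pair, 17.8% of the 365 that were at least 2-fold lower and 18.3% of all 9033. The interferon-stimulated motif stood in 9.72% of the first, 2.47% of the second and 2.55% of all. These shares are a description of the letters and not of binding.

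In the rescue pair 563 of 12728 genes were at least 2-fold higher with TNF (4.42%) and 566 were at least 2-fold lower (4.45%). The median log2 ratio over all genes was -0.003. The parental pair had 731 genes higher (5.74%) and 780 lower (6.13%), and the knockout pair 347 higher (2.73%) and 498 lower (3.91%). By the sample labels the Rescue_TNF library had 1007 genes at least 2-fold higher (7.91%) and 1034 at least 2-fold lower (8.12%) than the library labelled Rescue. TNF was tested in a fit over all 3 pairs. With edgeR's quasi-likelihood test of TNF, with line as a covariate, 1428 genes rose (11.2%) and 1376 fell (10.8%) at an adjusted p under 0.05. The spread in this test is how unequal the TNF effect was across the lines, so the count depended on which pairs were left. Without either library of the rescue pair, 3 genes rose and none fell, where the 2 pairs named parental and KO are left. Without the library named parental 470 rose and 421 fell, and without the one named parental with TNF 409 and 397. Without the library named KO 1683 rose and 1636 fell, and without the one named KO with TNF 1868 and 1732. With the labels' groups none rose or fell, and 491 had an unadjusted p under 0.05. Ratios of a single pair below are on the log2 scale with a prior count of 2, intervals are 95% exact Poisson intervals that cover counting error only, and "rose" and "fell" refer to the fit over the 3 lines.

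The 4 genes by which a TNF response is usually read were all higher with TNF in the rescue pair. Ccl2, which encodes the chemokine that recruits monocytes, was at 1639 CPM (1621 to 1657) with TNF and 50.3 CPM (47.5 to 53.4) without, a ratio of 32.6 (30.7 to 34.6). In the parental pair it was at 2038 and 46.3 CPM, and in the knockout pair at 380 and 33.1 CPM. The 3 libraries named TNF stood above the other 3 without overlap. Ccl2 rose over the 3 lines by 4.69 ± 0.44 on the log2 scale (3 pairs, edgeR adjusted p = 0.00871). Here and below, ± gives an approximate SE, the log2 effect divided by the square root of the F value of edgeR's test. It is not the spread of the ratios over the pairs. Vcam1, an adhesion molecule for leukocytes, was at 872 CPM (859 to 885) with TNF and 67.1 CPM (63.7 to 70.5) without in the rescue pair, at 1451 and 114 CPM in the parental pair and at 218 and 46.5 CPM in the knockout pair. It rose by 3.21 ± 0.34 (edgeR adjusted p = 0.01), and again all 3 libraries named TNF were above the other 3.

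Icam1, the second such adhesion molecule, was far less abundant. It was at 3.07 CPM (2.35 to 3.94) with TNF and 0.267 CPM (0.0979 to 0.581) without in the rescue pair, where the lower value is 6 counts. In the parental pair it was at 24.9 and 0.508 CPM and in the knockout pair at 2.53 and 0.246 CPM. The level with TNF in the rescue line was thus near that in the knockout line and below that in the parental line, and Icam1 rose over the 3 lines by 4.58 ± 0.47 (edgeR adjusted p = 0.00971). Ccl5, a chemokine for T cells, was at 769 CPM (757 to 781) with TNF and 2.62 CPM (2.00 to 3.38) without in the rescue pair, a ratio of 293 (227 to 385). It was at 1679.7 and 7.57 CPM in the parental pair and at 91.9 and 33.9 CPM in the knockout pair. The log2 ratio of Ccl5 was 8.14 in the rescue pair, 7.77 in the parental pair and 1.44 in the knockout pair, and the fit over the 3 lines did not pass (6.14 ± 1.85, edgeR adjusted p = 0.0723). DESeq2 called it (6.50), as did edgeR without the library named KO (7.94) or KO with TNF (7.95). Without the library named rescue or the one named rescue with TNF, Ccl2 (4.50 in both), Vcam1 (2.95 in both) and Icam1 (4.90 and 4.89) did not pass. By label the 4 genes were also higher in the library labelled Rescue_TNF than in the one labelled Rescue, by 5.62 (Ccl2), 4.23 (Vcam1), 3.21 (Icam1) and 4.50 (Ccl5).

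**Figure D1:**
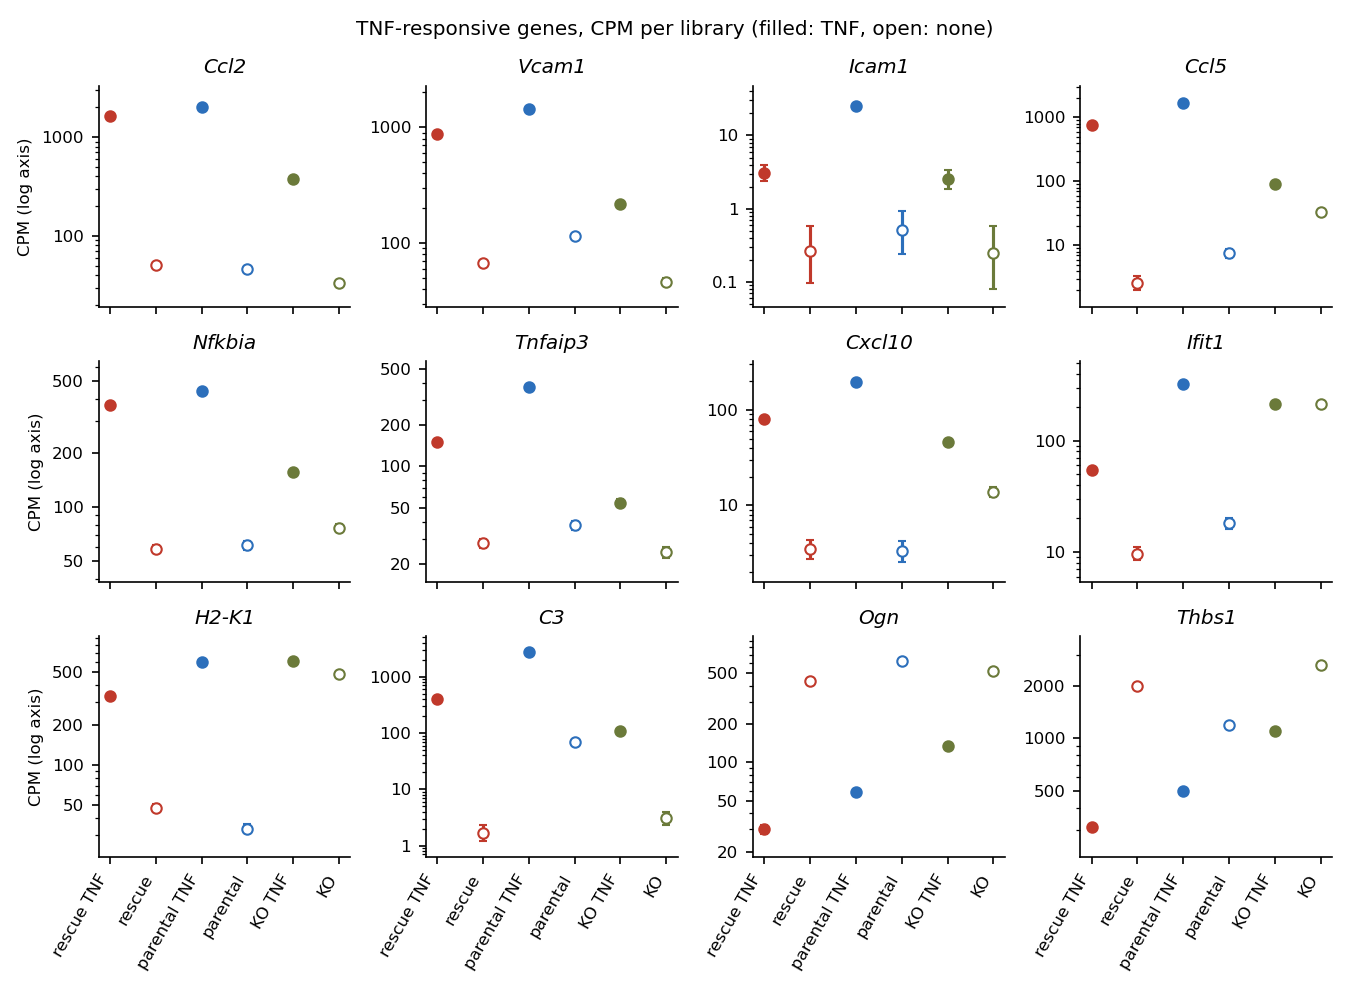
Level of 12 genes in each of the 6 libraries (CPM, log axis), with 95% exact Poisson intervals; filled points are libraries named TNF, open points those without, and red, blue and green are the rescue, parental and knockout pairs. Ccl2 stands at 1639 CPM with TNF and 50.3 CPM without in the rescue pair, while Ogn and Thbs1 run the other way in all 3 pairs; Ifit1 and H2-K1 are already high without TNF in the knockout pair.

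Genes of NF-kB itself were higher as a group. Of 18 listed NF-kB subunits, IkB proteins and feedback inhibitors, 17 passed the filter, and 10 of them were at least 2-fold higher in the rescue pair and none lower, against 4.42% and 4.45% of all genes; their median was 1.46. Over the 3 lines 14 of 17 rose and none fell, beside 11.2% and 10.8% of all genes. These 4 shares of all genes are the background for the counts of each list below. Tnip3, an inhibitor that binds A20, was at 13.3 CPM with TNF and 0.267 CPM without. Nfkbie, the gene of IkB epsilon, was at 85.4 and 8.23 CPM, a ratio of 10.4 (8.91 to 12.1). Nfkbia, the gene of IkB alpha, was at 372 and 58.5 CPM in the rescue pair, 440.3 and 61.3 CPM in the parental pair and 156 and 76.3 CPM in the knockout pair. Tnfaip3, the gene of the ubiquitin-editing enzyme A20, was 5.35-fold higher (4.91 to 5.84) and Relb, an NF-kB subunit, 5.85-fold higher (5.15 to 6.67). Bcl3, a nuclear IkB protein, was at 6.39 and 0.801 CPM. The subunits Nfkb2, Nfkb1 and Rela were 2.76-, 1.97- and 1.86-fold higher, and Rel 1.23-fold.

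The receptors and the proteins between receptor and NF-kB mostly stayed within 2-fold. Of 24 listed, all passed the filter, and their median was 0.20. In the rescue pair 4 were at least 2-fold higher and none lower, beside 4.42% and 4.45% of all genes. Over the 3 lines 7 of the 24 rose, beside 11.2% of all genes. Tnfrsf1a, the main TNF receptor, was at 124 CPM with TNF and 128 CPM without. Tnfrsf1b, the second receptor, was at 45.5 CPM with TNF and 31.4 CPM without in the rescue pair, with log2 ratios of 0.53 in the rescue pair, 0.05 in the parental pair and -0.15 in the knockout pair. The 4 past 2-fold were the adaptor Traf1 (63.4 and 1.51 CPM), the ubiquitin ligase Birc3 (32.5 and 7.74 CPM), the kinase Ikbke (42.7 and 14.1 CPM) and Traf3 (140.2 and 59.3 CPM), a brake on the non-canonical branch. Traf1, Birc3 and Traf3 rose over the 3 lines, and Ikbke did not pass (edgeR adjusted p = 0.0602). Of 17 measured genes of TNF-linked death and survival 3 were at least 2-fold higher, beside 4.42% of all genes. Their median was 0.34, and 7 rose over the 3 lines, beside 11.2% of all genes. Sod2, the mitochondrial superoxide dismutase, was at 193 CPM with TNF and 51.1 CPM without, the death receptor gene Fas at 45.5 and 14.9 CPM and the survival gene Ier3 at 65.9 and 23.4 CPM. Mlkl, the effector of necroptosis, and Bid, which links death receptors to mitochondria, were each 1.91-fold higher, within 2-fold.

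Most measured chemokines were higher with TNF. Of 18 CC chemokines listed, 8 passed the filter and 6 of these were at least 2-fold higher, with a median of 2.84. A gene near 0 without TNF could pass the filter through libraries with TNF, while members low in all libraries dropped out. Counts and medians of measured members can therefore lean towards higher, here and in other lists with members near 0 without TNF. Ccl7, a second monocyte chemokine, was at 729 CPM with TNF and 69.4 CPM without, and Ccl9 at 90.3 and 30.1 CPM. Ccl8 was at 18.4 CPM with TNF and at 1 count without, a ratio of 414 with a counting interval of 73.9 to 16410.5. Of the CC chemokines 5 rose over the 3 lines and none fell. Of 16 CXC and CX3C chemokines, 10 passed, 7 were at least 2-fold higher and 3 at least 2-fold lower (7 rose and 2 fell over the 3 lines), with a median of 2.51, or 2.24 with Cxcl11, at 0 without TNF, set to its bound. The CXC and CX3C median was 1.55 at a prior count of 8 and 1.21 on log2(TPM + 1). Cxcl10, which draws activated T cells, was at 80.1 CPM with TNF and 3.47 CPM without, a ratio of 23.1 (18.4 to 29.4). Cxcl16 was at 20.5 and 0.801 CPM, the neutrophil chemokine Cxcl1 at 37.7 and 6.85 CPM, Cxcl5 at 5.0 and 0.623 CPM and the membrane-bound Cx3cl1 at 231 and 70.0 CPM. Cxcl12, a homing signal for progenitor cells, was lower: 1265 CPM with TNF and 2638 CPM without, and it fell over the 3 lines by 1.15 on the log2 scale (edgeR adjusted p = 0.00904).

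Among 13 measured cytokines and colony-stimulating factors 6 were at least 2-fold higher and 2 lower (median 0.94), and over the 3 lines 5 rose and 1 fell. By label the median was 0.44. Lif, a cytokine of the interleukin-6 family, was at 82.1 CPM with TNF and 3.65 CPM without, a ratio of 22.5 (18.0 to 28.5). Csf1, the growth factor of macrophages, was at 1646 and 735 CPM and Il34, a second ligand of its receptor, at 16.7 and 7.03 CPM. Il1rn, which encodes the interleukin-1 receptor antagonist, was at 32.1 CPM with TNF and 68.9 CPM without. Il6 stayed low, at 0.941 and 0.445 CPM. Of 14 measured leukocyte adhesion molecules 7 were at least 2-fold higher and none lower (median 1.02, and the same with Madcam1, at 0 without TNF, set to its bound), and 7 rose and 1 fell over the 3 lines. By label the median was 0.63. Sele, the gene of E-selectin, was at 3.62 and 0.311 CPM, and Cd47 and Pvr were 2.14- and 2.21-fold higher. Cd44, a hyaluronan receptor, was 1.92-fold higher (1.87 to 1.97), and Cd99l2 was at 54.0 CPM with TNF and 76.2 CPM without.

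Interferon response genes were higher together. All 38 of the 40 listed that passed the filter were above 0 in the rescue pair, beside 49.4% of all genes, and 34 were at least 2-fold higher and none lower, with a median of 2.21. Gbp2, a guanylate-binding protein gene, was at 221 CPM with TNF and 16.2 CPM without, a ratio of 13.6 (12.2 to 15.2), and Gbp5 at 15 and 0.267 CPM. Zbp1, a sensor of nucleic acids, was at 15.7 and 0.667 CPM, and Rsad2, the gene of the antiviral enzyme viperin, at 7.43 and 0.845 CPM. The transcription factor genes Irf1 (171 and 49.8 CPM) and Irf7 (21.5 and 4.54 CPM) were 3.44- and 4.74-fold higher. Ifnb1, the gene of interferon beta, was at 1 count or fewer in the rescue pair (0.050 and 0 CPM).

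The interferon response genes differed widely between the 3 lines. All 38 ratios were smaller in the rescue pair than in the parental pair, where the median was 3.77, with a median difference of -1.35, and all 38 were larger than in the knockout pair, where it was 0.22. The knockout pair already stood high without TNF: the 38 genes summed to 1660.5 CPM with TNF and 506 CPM without in the rescue pair, to 6304 and 696 CPM in the parental pair and to 4027 and 3477 CPM in the knockout pair. Ifit1, an antiviral effector, was at 54.1 and 9.61 CPM in the rescue pair, 324 and 18.0 CPM in the parental pair and 213 and 212 CPM in the knockout pair. Over the 3 lines only 1 of 38 passed, Irf1 (log2 1.49, edgeR adjusted p = 0.0498). By label the median was -1.46 and 25 of 38 were at least 2-fold lower, since that ratio sets the library named rescue with TNF over the one named KO.

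Antigen presentation on MHC class I followed the same order. All 20 listed genes passed the filter, 16 were at least 2-fold higher and none lower, with a median of 1.28, or 1.22 with H2-Q6, at 0 without TNF, set to its bound. H2-K1, a class I heavy chain gene, was at 331 CPM with TNF and 47.7 CPM without in the rescue pair, 600.1 and 33.1 CPM in the parental pair and 607 and 482 CPM in the knockout pair. H2-D1 was at 445 and 114 CPM, the peptide-loading factor gene Tapbp at 730 and 182 CPM, and the light chain B2m at 967 and 422 CPM. The immunoproteasome subunits Psmb10 and Psmb8 were 6.70- and 6.76-fold higher. The transporters Tap1 and Tap2 were 1.37- and 1.53-fold higher, within 2-fold. The median was 2.38 in the parental pair and 0.16 in the knockout pair, 19 of 20 ratios were smaller in the rescue pair than in the parental pair, and 3 of 20 rose over the 3 lines. Class I genes are close copies of each other, so reads may have been split between them.

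**Figure D2:**
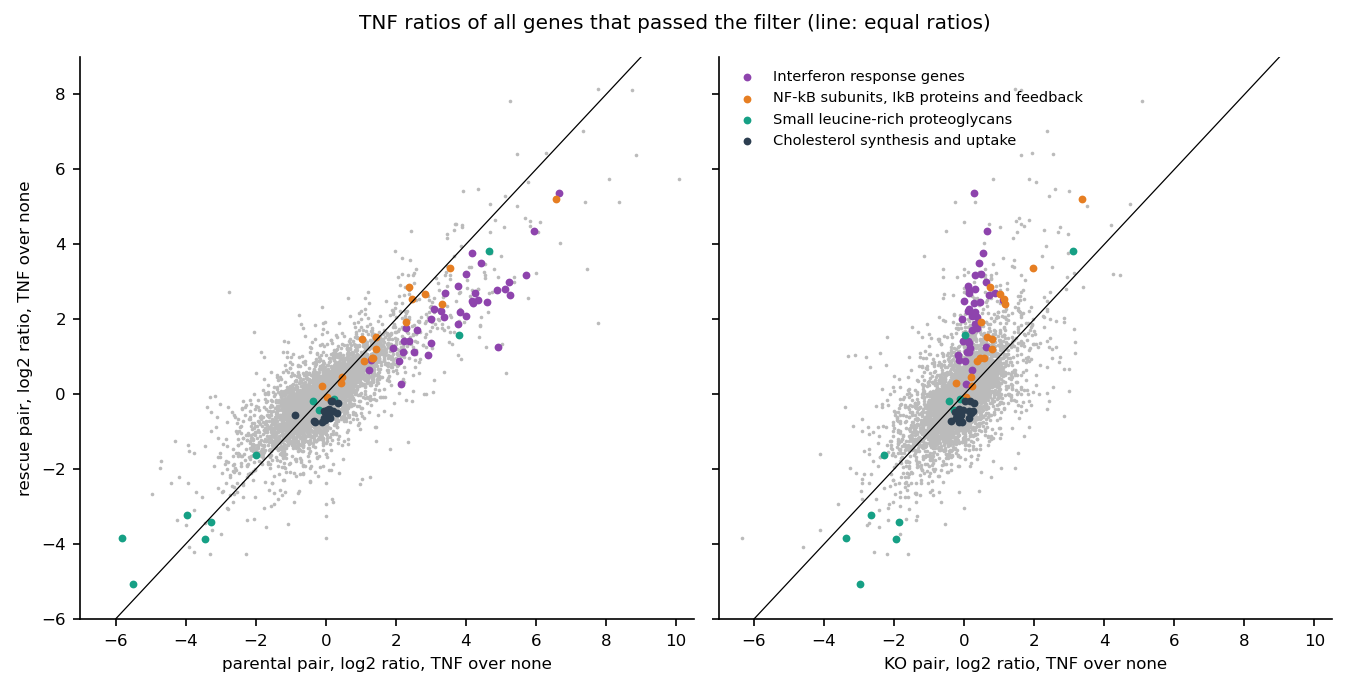
Log2 ratio, TNF over none, in the rescue pair (y axis) against the parental pair (left) and the knockout pair (right), 1 point per gene that passed the filter (12728); 4 gene lists are coloured. Interferon response genes lie below the line of equal ratios in the left panel and in an upright band near 0 in the right panel, and cholesterol genes sit below 0 on the y axis in both.

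Complement, acute-phase and inflammatory enzyme genes were mostly higher. Of 27 listed, 19 passed, 15 were at least 2-fold higher and 1 lower, with a median of 2.01, which did not move with the 4 members at 0 without TNF set to their bound; 11 rose and 1 fell over the 3 lines. By label the median was 3.45. C3, the central complement protein, was at 408 CPM (399 to 417) with TNF and 1.69 CPM (1.20 to 2.32) without in the rescue pair, a ratio of 242 (176 to 342). It was at 2707 and 69.9 CPM in the parental pair and at 107 and 3.05 CPM in the knockout pair, so the level with TNF was below the parental line's and the level without was the lowest of the 6. Nos2, the inducible nitric oxide synthase, was at 27 CPM with TNF and 0 without, at least 202-fold higher against a floor of 3 counts in the library without TNF, and Irg1, which makes itaconate, was at 8.07 CPM and 0, at least 60.5-fold higher. Saa3, a serum amyloid, and Ch25h, a cholesterol hydroxylase, were each at 5.15 CPM with TNF and 0 without, at least 38.6-fold higher. Ptgs2, the gene of cyclooxygenase 2, was at 67.8 and 14.4 CPM and Ptges, which makes prostaglandin E2 from its product, at 60.4 and 14.9 CPM. Cfb, a part of the convertase of the alternative complement pathway, was at 6.39 CPM with TNF and at 2 counts without, a ratio of 71.8 (19.5 to 600).

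Matrix proteases split into 4 at least 2-fold higher and 4 at least 2-fold lower of 18 measured (median 0.00; 5 rose and 6 fell over the 3 lines). The metalloproteinases Mmp9 (29.0 and 0.578 CPM), Mmp3 (65.7 and 3.16 CPM) and Mmp13 (15.8 CPM with TNF and 2 counts without) were higher. Timp3, a protease inhibitor held in the matrix, was at 490 CPM with TNF and 1317 CPM without, and the proteoglycan-cutting Adamts5 and Adamts1 were at 90.4 and 338 CPM and at 104 and 342 CPM. Timp1 was 1.82-fold higher (1.74 to 1.92).

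Small leucine-rich proteoglycans, which bind collagen fibrils, were mostly lower. Of 11 measured, 6 were at least 2-fold lower and 2 higher, with a median of -1.62, and 6 fell and 1 rose over the 3 lines. The median was -0.75 on log2(TPM + 1) and -2.66 by label. Ogn, osteoglycin, was at 29.8 CPM with TNF and 437 CPM without in the rescue pair, 58.2 and 631 CPM in the parental pair and 135 and 519 CPM in the knockout pair. Aspn, asporin, was at 3.42 and 119 CPM, Fmod, fibromodulin, at 9.76 and 141 CPM, Prelp at 8.87 and 84.3 CPM and Omd, osteomodulin, at 3.22 and 34.9 CPM. The 2 members that were higher were Dcn, decorin, at 38.3 CPM with TNF and 2.62 CPM without, and Lum, lumican, at 11.6 and 3.82 CPM. Dcn rose over the 3 lines by 4.18 ± 0.24 (edgeR adjusted p = 0.00618), and Lum did not pass (edgeR adjusted p = 0.0531), with a log2 ratio of 1.58 in the rescue pair, 3.79 in the parental pair and 0.02 in the knockout pair.

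Of 30 measured collagens, fibronectin, laminins and other matrix proteins 11 were at least 2-fold lower and 4 higher, with a median of -0.73, and 17 fell and 6 rose over the 3 lines. Col1a1, a chain of type I collagen, was at 6183 CPM with TNF and 13341 CPM without in the rescue pair, 7854 and 14869 CPM in the parental pair and 7270.1 and 11092 CPM in the knockout pair. Col11a1 was at 37.3 and 183 CPM, Nid2, a basement membrane linker, at 57.7 and 206 CPM and Col12a1 at 198 and 515 CPM. Fn1, the fibronectin gene, was at 4755 and 7244 CPM. Tnc, tenascin C, was higher, at 172 CPM with TNF and 55.1 CPM without, and Col5a3 was at 90.3 and 31.8 CPM.

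Smooth muscle contractile genes were lower or within 2-fold: 6 of 17 were at least 2-fold lower and none higher, with a median of -0.57, and 8 fell and 1 rose over the 3 lines. Acta2, smooth muscle actin, was at 618 CPM with TNF and 1239.8 CPM without, Myl9, a myosin light chain, at 31.9 and 72.3 CPM, Mylk, its kinase, at 25.6 and 57.7 CPM and Lmod1, an actin nucleator, at 13.7 and 49.8 CPM. Itga8, an integrin chain, was at 0.694 and 7.78 CPM. The 12 smooth muscle and fibroblast markers, which share members with this list and with the proteoglycans, had a median of -0.90, with 4 at least 2-fold lower and 2 higher. The 8 measured endothelial markers had a median of 0.33 with 2 at least 2-fold higher, the 4 macrophage and leukocyte markers 0.14 with 1 higher and 1 lower, and the 2 epithelial markers -1.51 with 1 lower. Fewer cells of a type and less RNA per cell cannot be told apart in bulk libraries.

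Of 17 measured shear-responsive and YAP-linked genes 7 were at least 2-fold lower and 2 higher (median -0.48; 6 fell and 3 rose over the 3 lines). Bmp4, a signal of disturbed flow, was at 14.2 CPM with TNF and 77.2 CPM without. The YAP targets Ctgf (133 and 337 CPM), Cyr61 (219 and 443 CPM) and Amotl2 (143 and 355 CPM) were lower, and Ankrd1, a further YAP target, was at 118 and 115 CPM. Klf2, the flow-induced transcription factor, was at 14.8 and 17.1 CPM, within 2-fold, and Klf4 at 100.4 and 149 CPM. Pdgfb, a growth factor for mural cells, was higher, at 23.3 and 6.14 CPM.

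AP-1 and immediate early genes were higher for a part: 6 of 18 at least 2-fold higher and 1 lower, with a median of 0.72, and 10 rose and none fell over the 3 lines. Junb was at 202 CPM with TNF and 36.9 CPM without, Fosl1 at 124 and 40.7 CPM, Jun at 370 and 175 CPM and Egr2 at 10.4 and 2.13 CPM. Myc was at 143 and 59.0 CPM, and Zfp36, whose protein destabilises cytokine messages, at 42.7 and 18.9 CPM. The 20 genes of the p53 response and of CDK inhibitors all stayed within 2-fold (median 0.18). Over the 3 lines 6 of these rose and 3 fell, beside 11.2% and 10.8% of all genes. Trp53 itself was at 356 and 195 CPM and Mdm2, its inhibitor, at 737 and 429 CPM, while the CDK inhibitor Cdkn1b was at 47.0 and 92.4 CPM and Cdkn1a at 698 and 649 CPM.

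The unfolded protein and integrated stress response had 1 of 18 at least 2-fold higher and 1 lower, beside 4.42% and 4.45% of all genes. The median was -0.28. Over the 3 lines 6 fell and 1 rose, beside 10.8% and 11.2% of all genes. Trib3, a stress-induced pseudokinase, was at 28.9 CPM with TNF and 64.0 CPM without, Ddit3, the gene of CHOP, at 41.7 and 65.5 CPM, and Slc7a11, a cystine transporter, at 30.6 and 12.6 CPM. The 30 DNA replication and mitosis genes all stayed within 2-fold, between -0.25 and 0.29 on the log2 scale, with 15 above 0 and 15 below, and none passed over the 3 lines. Mki67, a marker of cycling cells, was at 354 and 350.4 CPM. In the parental pair 26 of the 30 were below 0, with a median of -0.25. The 37 splicing regulators also stayed within 2-fold (median 0.10). Over the 3 lines 4 of these 37 rose, beside 11.2% of all genes. Ptbp2, which Ptbp1 represses, was at 76.5 CPM with TNF and 67.6 CPM without in the rescue pair, 37.8 and 38.2 CPM in the parental pair and 192 and 219 CPM in the knockout pair. Srsf2 was at 216 and 172 CPM and Mbnl1 at 237 and 373 CPM.

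**Figure D3:**
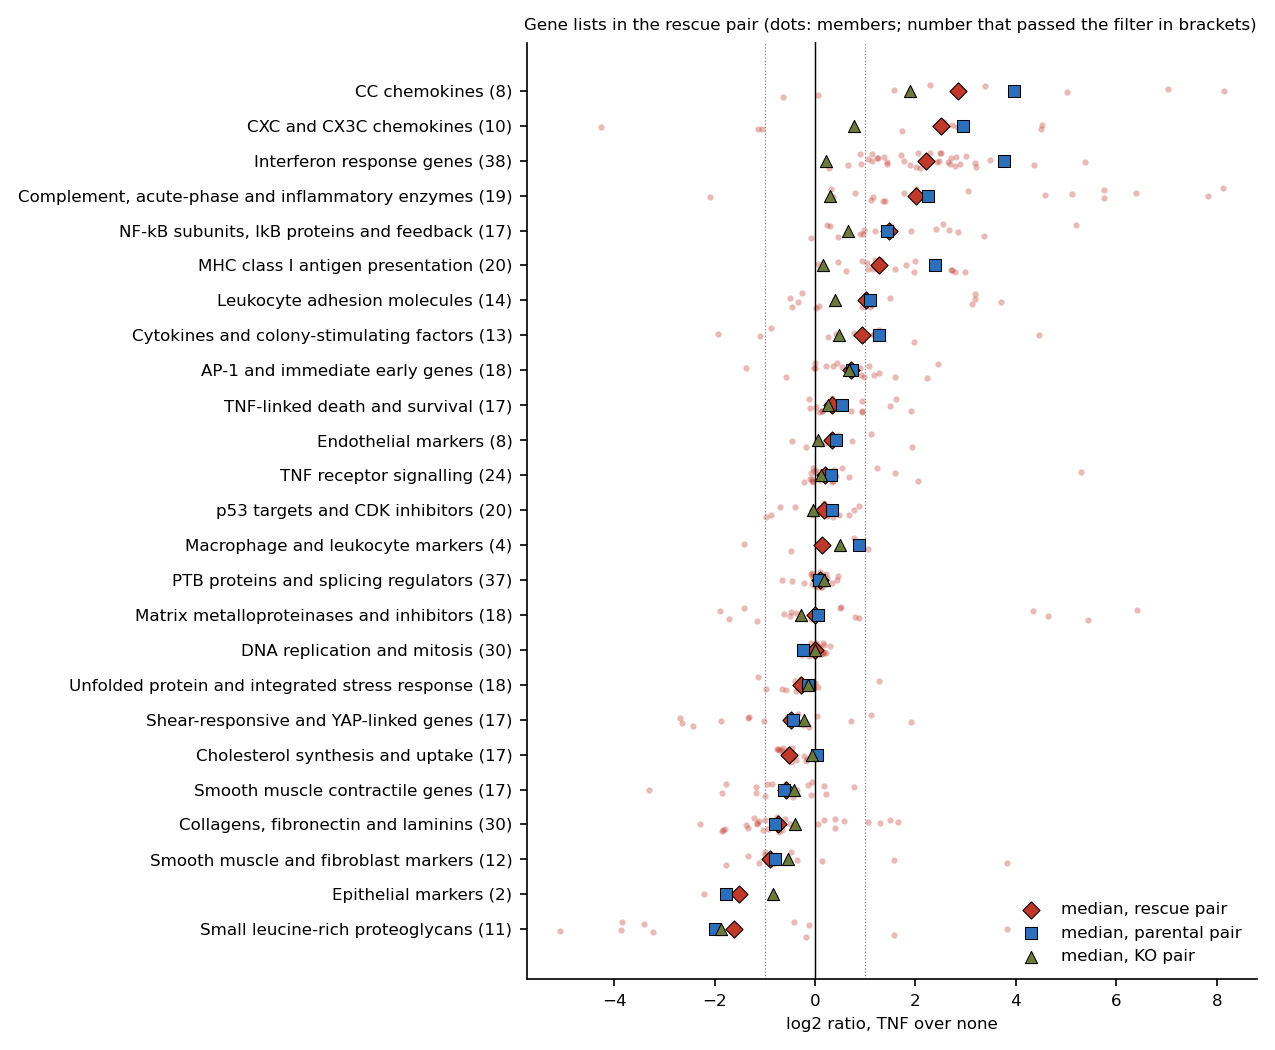
Log2 ratio, TNF over none, of the measured members of 25 gene lists (red dots: members in the rescue pair; diamonds, squares and triangles: medians in the rescue, parental and knockout pairs); dotted lines mark 2-fold. The rescue median of CC chemokines lies at 2.84 and that of small leucine-rich proteoglycans at -1.62, and the interferon and MHC class I medians lie between those of the knockout and parental pairs.

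Cholesterol genes were lower with TNF in the rescue pair, at a small size. All 17 measured genes of cholesterol synthesis and uptake were below 0 in the rescue pair, beside 50.6% of all genes, with a median of -0.51 and none past 2-fold. Of the 17, 1 had 1 count or fewer in each rescue library, so its ratio carries almost no information. Over the 3 lines 1 of 17 fell. Idi1, an isomerase of the pathway, was at 150.2 CPM with TNF and 234 CPM without in the rescue pair, 139 and 129 CPM in the parental pair and 150 and 136 CPM in the knockout pair. Cyp51 was at 62.6 and 104 CPM in the rescue pair, 253 and 273 CPM in the parental pair and 137 and 153 CPM in the knockout pair. Insig1, which holds back the SREBP activators of the pathway, was at 102 and 171 CPM, Fdps at 157 and 244 CPM and Lss at 70.3 and 113 CPM. The median was 0.03 in the parental pair and -0.06 in the knockout pair. The 17 genes summed to 2047 CPM with TNF and 2799 CPM without in the rescue pair. The sums were 2591 and 2470 CPM in the parental pair and 2000 and 1974 CPM in the knockout pair. Gene by gene, rescue over parental had a median log2 ratio of 0.21 without TNF and -0.32 with TNF. By label the median was 0.09.

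**Figure D4:**
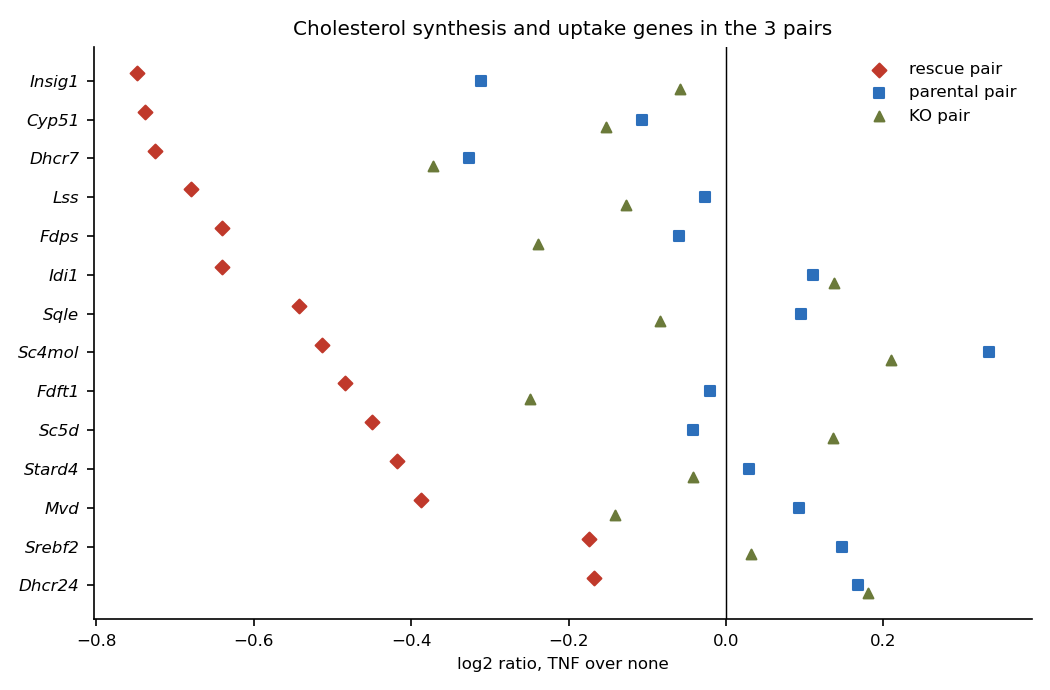
Log2 ratio, TNF over none, of measured genes of cholesterol synthesis and uptake in the rescue pair (diamonds), the parental pair (squares) and the knockout pair (triangles). Every red diamond lies below 0, and for Idi1 and Sc4mol the other pairs lie above 0.

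A term for TNF in the rescue line set its response against that of the other 2 lines, treating the parental and knockout pairs as replicates of each other. Its spread comes from those 2 pairs alone (1 residual degree of freedom), which were unlike in places, with interferon medians of 3.77 and 0.22, so its p-values rank genes and show no difference of the rescue line. With edgeR's quasi-likelihood test no gene passed an adjusted p under 0.05 in either direction, and 106 of 12728 had an unadjusted p under 0.05 (0.833%). DESeq2 called 1 gene higher, C3 (2.69), and 1 lower, Thbs1 (-1.44), under the same limit. C3 also had the smallest unadjusted p in edgeR (rescue term 2.70 ± 0.19, SE), with log2 ratios of 7.84 in the rescue pair, 5.27 in the parental pair and 5.09 in the knockout pair. Thbs1, the gene of the matrix protein thrombospondin 1, had the smallest unadjusted p below 0 (-1.44 ± 0.17, SE). It was at 310 CPM with TNF and 1999.6 CPM without in the rescue pair, 501 and 1199 CPM in the parental pair and 1109 and 2635 CPM in the knockout pair, and so was lower with TNF in all 3.

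Other genes with the smallest p in this test did not pass the adjustment. Cdk6, a cell cycle kinase, had ratios of 2.28 in the rescue pair, 1.12 in the parental pair and 1.19 in the knockout pair, and Mmp9 had 5.43, 3.91 and 3.0. Rasal2 had 0.48, -0.15 and -0.10 and Cd24a -0.65, -1.20 and -1.31 in that order, and Fam84a was under 2 CPM in all 6 libraries. On the other side Dpt, dermatopontin, had -0.83 in the rescue pair, 0.24 in the parental pair and 0.40 in the knockout pair, Klhdc8a -0.24, 0.68 and 0.80 and LOC624853 -0.66, 0.45 and 0.45. Gadd45g had -1.75, -0.71 and -0.84 and Cdc42ep3 -1.07, -0.15 and -0.17. Of the 17 cholesterol genes all had a rescue term below 0, with a median of -0.55, beside 49.7% of all genes below 0; none passed the adjustment.

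Across genes the rescue and parental ratios went together more closely than the rescue and knockout ratios (Pearson r 0.81 and 0.63, Spearman rho 0.74 and 0.63, over 12728 genes; the pairs share no library, and genes are not independent replicates). Of the 563 genes at least 2-fold higher in the rescue pair, 439 were also at least 2-fold higher in the parental pair (78.0% of the rescue list and 60.1% of the parental one), and 202 in the knockout pair (35.9% of the rescue list and 58.2% of the knockout one). Of the 566 lower genes, 348 were shared with the parental pair (61.5% and 44.6%) and 253 with the knockout pair (44.7% and 50.8%). In all 3 pairs 161 genes were higher and 185 lower, and 83 and 150 were past 2-fold in the rescue pair alone. Of all 12728 genes, 5.74% were at least 2-fold higher and 6.13% lower in the parental pair. The knockout pair had 2.73% and 3.91%. Its lists are shorter, at 347 and 498 genes, which limits how much of the rescue lists they can share. Among the 439 genes higher in both the rescue and parental pairs, 325 had the smaller ratio in the rescue pair and 114 the larger. Over all 439 the median difference, rescue minus parental, was -0.405 on the log2 scale. Neither these shares nor these differences were tested.

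Splicing was read from deposited psi values, the fraction of transcripts that include a node (an exon, a part of one or a retained intron). Of 97890 internal nodes with at least 20 reads in both rescue libraries, 220 had a psi higher by at least 0.2 with TNF (0.225%) and 250 a lower one (0.255%). The parental pair had 217 nodes higher (0.222%) and 311 lower (0.318%), and the knockout pair 226 (0.232%) and 222 (0.228%). Core exons made up 84 of the higher and 128 of the lower nodes, of 83936. Alternative acceptors (41 and 51 of 4439), alternative donors (47 and 40 of 3392) and retained introns (48 and 31 of 6123) had larger shares. Of 352 called nodes that had at least 20 reads in all 6 libraries, 104 moved by at least 0.1 the same way in the parental pair and 66 the opposite way. In the knockout pair 82 and 58 did. Of all 91687 nodes with such reads, 2.00% moved that far in the parental pair and 1.81% in the knockout pair. Most internal nodes are core exons, which were called least often (0.253% in the rescue pair). Those shares are therefore no matched background for the 352. Of the 91687 nodes, 85 moved by at least 0.1 the same way in all 3 pairs. How many would do so through counting error was not tested.

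The 10 nodes with the largest change and at least 40 reads in both rescue libraries were mixed in whether other pairs moved. A 59-nt exon of Timm23, a subunit of the mitochondrial import channel (chr14:32191342-32191400), had a psi of 0.277 (deposited interval 0.201 to 0.372; 72.5 reads) with TNF and 1.00 (0.952 to 0.999; 59.3 reads) without, and 1.00 in the other 4 libraries. A retained intron of Sdf4 (chr4:155993007-155993152) had 0.954 with TNF and 0.292 without, between 0.849 and 1.00 in the other libraries, and an alternative acceptor part of Ubp1 (chr9:113973519-113973564) 0.945 and 0.413, against 0.952 or more elsewhere. Shc4 and Serf2 nodes likewise had 0.472 and 0.507 with TNF and 0.97 or more in the other 5 libraries, and a 34-nt exon of Ciz1 had 0.857 with TNF and 0.354 without, with 0.566 to 0.727 elsewhere. In these nodes, Ciz1 aside, a single rescue library stood apart from the other 5 libraries. For Ciz1 the 2 rescue libraries were the highest and the lowest of the 6. The parental pair moved the same way, by less, at Sdf4 (1.00 with TNF and 0.849 without) and at Ciz1 (0.700 and 0.566). For Paip1 (0.751 and 0.212), Mtch1 (0.997 and 0.447) and Gm47761 (0.816 and 0.185) the knockout pair moved the opposite way, for example 0.23 with TNF and 0.734 without at Paip1. At each of these nodes the same libraries were low, those named rescue and KO with TNF (0.533 or less). The other 4 were at 0.615 or more. The node of 3110039I08Rik had 0.965 and 0.471 in the rescue pair, 0.447 and 0.929 in the parental pair and 0.453 and 0.320 in the knockout pair.

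**Figure D5:**
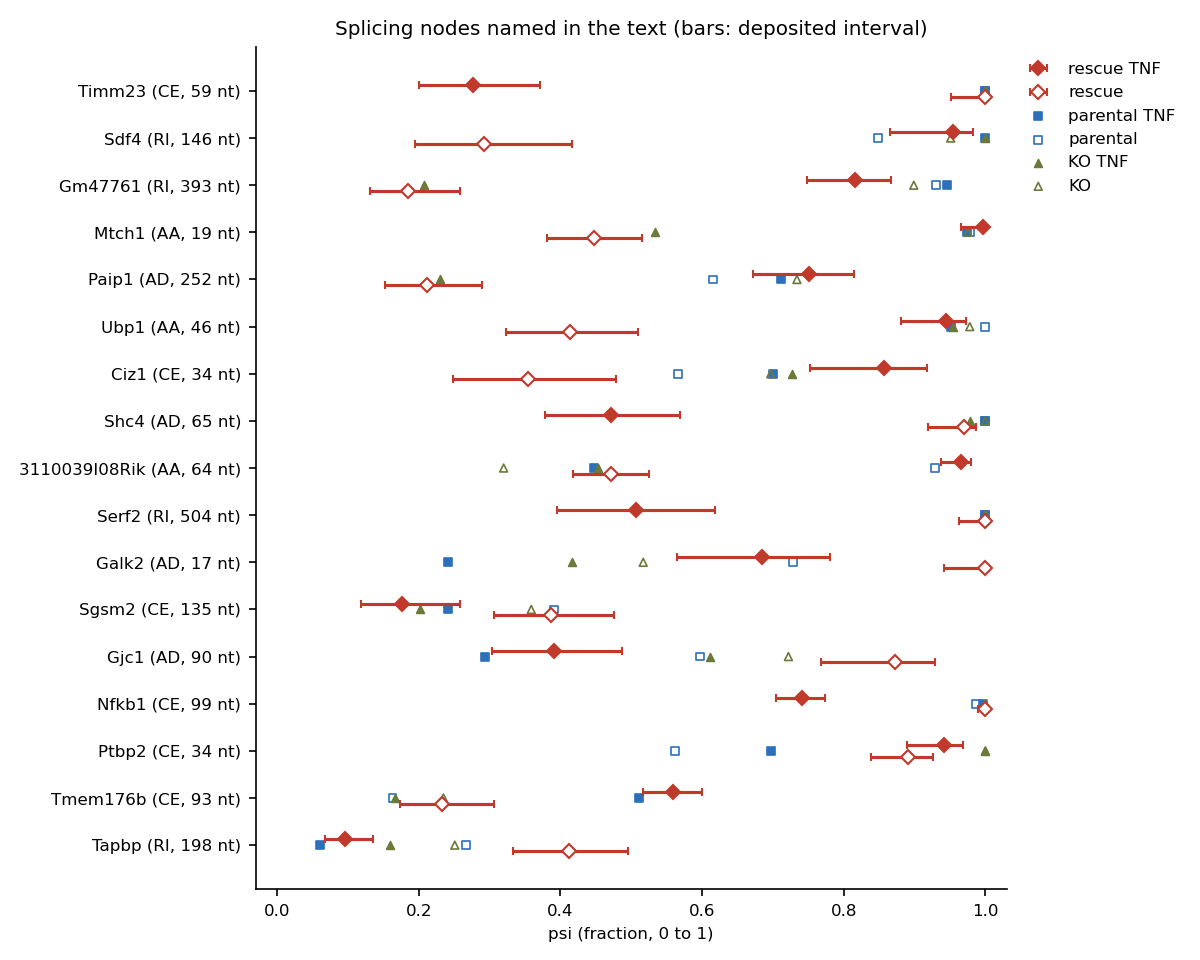
Psi of the named splicing nodes in the 6 libraries (red diamonds with deposited intervals: rescue pair; blue squares: parental pair; green triangles: knockout pair; filled: TNF, open: none). For Timm23 and Nfkb1 the rescue library with TNF stands alone at the left, and for Sgsm2, Galk2 and Gjc1 the filled points lie left of the open ones in each pair.

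A few nodes moved the same way in each pair. Of the 85, 27 in 25 genes changed by at least 0.2 in the rescue pair, and those with at least 40 reads in all 6 libraries included nodes of Galk2, Sgsm2 and Gjc1. A 135-nt coding exon of Sgsm2 had a psi of 0.176 with TNF and 0.387 without in the rescue pair, 0.241 and 0.391 in the parental pair and 0.202 and 0.359 in the knockout pair. An alternative donor part of Gjc1, a connexin gene, had 0.391 and 0.872 in the rescue pair, 0.293 and 0.597 in the parental pair and 0.611 and 0.722 in the knockout pair. Such a part of Galk2, a sugar kinase gene, had 0.684 and 1.00 in the rescue pair, 0.242 and 0.728 in the parental pair and 0.417 and 0.517 in the knockout pair. These nodes had a lower psi with TNF in each pair.

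The next 2 exons are shown because they bear on the pathway and on the repressor; they lie outside the 10 above and were chosen after their values were seen. The sequences are from GENCODE vM21 transcripts, 5′ to 3′, with no base singled out.
Nfkb1, chr3:135655500-135655598, minus strand: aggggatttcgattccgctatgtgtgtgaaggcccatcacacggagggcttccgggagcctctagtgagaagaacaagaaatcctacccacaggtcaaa
Ptbp2, chr3:119724612-119724645, minus strand: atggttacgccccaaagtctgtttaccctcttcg
The 99-nt coding exon of Nfkb1, the gene of the NF-kB subunit p105, had a psi of 0.741 (0.704 to 0.774; 428 reads) with TNF and 1.00 (0.989 to 1.00; 264 reads) without in the rescue pair. It was at 0.997 and 0.987 in the parental pair and at 1.00 in both knockout libraries. The length is a multiple of 3. The 34-nt exon of Ptbp2, which Ptbp1 keeps out, had a psi of 0.942 (0.889 to 0.969; 101 reads) with TNF and 0.891 (0.839 to 0.926; 139 reads) without, so the intervals of the 2 rescue libraries overlap. It was at 0.698 and 0.562 in the parental pair and at 1.00 in both knockout libraries, which puts the 2 rescue libraries between the other lines. Also outside the 10 was a 93-nt exon of Tmem176b annotated as untranslated (chr6:48840361-48840453). This exon had 0.559 and 0.233 in the rescue pair, 0.511 and 0.163 in the parental pair and 0.166 and 0.235 in the knockout pair. A retained intron of Tapbp (chr17:33920051-33920248) had 0.0962 and 0.412 in the rescue pair, 0.0602 and 0.267 in the parental pair and 0.159 and 0.251 in the knockout pair, where Tapbp itself was at 730 CPM with TNF and 182 CPM without.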

How the data were processed

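Each of the 6 libraries came from total RNA and a SMARTER mRNA-seq kit, per the labels' protocols. The authors' gene tables hold expected counts and TPM made with RSEM, per the submitters' processing notes; its version, the aligner and the build are not given in the sources used here. From the deposit of the library named KO the transcript table was used: its expected counts were summed per gene. A second set of deposited files gives psi as a fraction per node with its interval and reads, junction counts, and TPM with estimated counts per gene; the tool is not given in the sources used here.

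Expected counts were rounded, rows with no gene (0.073 to 0.093% of counts) were left out, and 12728 of 21674 genes passed filterByExpr with a minimum count of 10. Single pairs were compared by TMM-scaled CPM with a prior count of 2 and a 2-fold threshold, and exact Poisson intervals cover counting error only. The fits used edgeR 4.0.16 (quasi-likelihood, line plus TNF, 2 residual degrees of freedom; with the rescue term 1), Benjamini-Hochberg adjustment over all genes, and DESeq2 1.42.0 as an alternative, in R 4.3.3; tables and figures used Python 3.11.15. The fits were tested on simulated data. Nothing says that libraries came from separate cultures, so p-values measure only the spread between these samples, part of which may be technical. In the fit over the 3 lines that spread is how unequal the TNF effect was across lines. A gene that responded in some lines only may therefore not pass. The members and the 25 lists (496 genes, 490 matched) were chosen with earlier results of these data known. Of the 510 genes described, 376 had a promoter in the RefSeq table.

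Named genes were the 4 markers; in each list up to 6 members with the largest ratio in the rescue pair and at least 5 CPM in 1 of its libraries, and the list's founders; over all genes the 15 highest and 15 lowest ratios with at least 100 counts in 1 library; the 6 smallest p in each direction for the rescue term; and the 10 nodes with the largest psi change at 40 reads or more. Genes chosen by their ratio in the rescue pair were tested in a fit that includes that pair. Further genes, among them Tap1, Il6, Rel and the receptors, were added to describe a list and were chosen after their values were seen. Alternatives were the labels' groups, other scalings, filters and folds, TPM, the second quantification, leaving out each library, DESeq2 and other psi settings. A few genes that this rule would name are not reported here.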

Additional observations from a re-analysis of the deposited data

How the results depend on the processing

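For the rescue pair the counts of genes at least 2-fold higher and lower, 563 and 566, became 1007 and 1034 with the labels' groups, 867 and 885 with no filter on low counts, 310 and 304 on log2(TPM + 1), 294 and 260 with the second quantification, 1099 and 1323 at 1.5-fold and 179 and 99 at 4-fold. With the labels' groups the median of the interferon response genes was -1.46 and that of MHC class I -0.31, both reversed, and that of the cholesterol genes 0.089. Other list medians that moved under the labels were smooth muscle genes (-0.86), stress response (-0.47), replication (-0.28), metalloproteinases (0.21), splicing regulators (0.05), AP-1 (0.91), endothelial markers (0.59) and epithelial markers (-3.76). On log2(TPM + 1) death and survival genes had a median of 0.19, AP-1 genes 0.62, splicing regulators 0.03 and epithelial markers -0.39, and the proteoglycans (-0.75) stood above the collagens (-0.79). Proteoglycans had -1.31 at a prior count of 8. At a prior count of 0.5 epithelial markers had -2.42, below the proteoglycans at -1.72, and at 8 they had -0.77. Over the 3 lines leaving out each library gave 3 to 1868 genes higher and 0 to 1732 lower, and the labels' groups gave 0 and 0. DESeq2 gave 1466 and 1319 there. The parental and rescue pairs alone, an alternative added after seeing the data, gave 1688 and 1425. For the rescue term DESeq2 gave 1 higher and 1 lower. Splicing nodes higher and lower, 220 and 250, became 396 and 439 at 10 reads, 60 and 73 at 50 reads, 1059 and 1108 at a change of 0.1 and 64 and 71 at 0.3, and 417 and 365 with the labels' groups. The cause of these shifts was not tested. Line is a term of the fit over the 3 lines, which pairs the libraries by line. By replicate number no paired analysis was possible because each group holds 1 library. Values near 0 CPM rest on few counts, and 1 library per group limits every ratio.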

Other observations

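Some genes with the largest ratios in the rescue pair belong to none of the lists. Prl2c2, which encodes the secreted growth factor proliferin, was at 177 CPM with TNF and 5.20 CPM without, a ratio of 34.1 (28.4 to 41.4), with log2 ratios of 4.69 in the parental pair and 4.74 in the knockout pair. Near-identical copies of Prl2c2 make its count uncertain. Serpinb2, a plasminogen activator inhibitor, was at 16.1 CPM with TNF and at 2 counts without, a ratio of 180 with a counting interval of 49.6 to 1496.

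At the other end Sfrp2, a secreted Wnt antagonist, was at 25.3 CPM with TNF and 287 CPM without, with log2 ratios of -3.98 in the parental pair and -2.77 in the knockout pair. Aoc3, an amine oxidase known as vascular adhesion protein, was at 2.08 and 40.1 CPM, Lrrc17 at 0.743 and 11.1 CPM, Islr at 3.72 and 27.8 CPM and Cmklr1, the chemerin receptor, at 0.644 and 4.89 CPM. Ces1g, a carboxylesterase, was at 2.23 and 17.7 CPM and Aldh1a7, an aldehyde dehydrogenase, at 0.347 and 4.45 CPM. All of these fell over the 3 lines (edgeR adjusted p between 0.00779 and 0.0142). They were chosen by their ratio in the rescue pair, which is 1 of the 3 pairs in that fit. Their passing is thus no separate support.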
